A study of Mus musculus with 6 samples.

Results

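The 10 genes described here encode granule proteins and receptors of eosinophils, mast cells and basophils: Prg2, Prg3, Epx, Ear1, Ear2, Cpa3, Fcer1a, Ms4a2, Mcpt8 and Prss34. They were taken by symbol from the 24015 genes that the count files list. All 10 were found and all had at least 1 count in some library. The libraries were made from sorted stem and progenitor cells of established acute myeloid leukaemia driven by the fusion oncogene MLL-AF9, in mice. The leukaemia was started from lin-cKit+ bone marrow progenitors of NIKERT2 mice, a cross of Rosa-loxp-STOP-loxp-NIK with Rosa-CreERT2 animals, so cells of both groups carry the NIK transgene behind a stop and the tamoxifen-dependent Cre. The LSPC group (untreated, 3 libraries) received no tamoxifen and the LSPCT group (tamoxifen, 3 libraries) did. Because Rosa is active in most cell types and tamoxifen went only to 1 group, NIK, Cre activity and the drug itself cannot be told apart. The labels give neither the age of the mice nor the tamoxifen dose or sort gates.

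Eosinophils, mast cells and basophils are rare granulocytes that defend against parasites and drive allergic inflammation. They arise from myeloid progenitors under GATA and C/EBP transcription factors, and progenitors transcribe granule genes before mature cells appear. Eosinophil granules hold basic proteins, a peroxidase and ribonucleases. Mast cells and basophils store proteases and carry the high-affinity IgE receptor, built from an alpha chain that binds IgE, a beta chain that amplifies the signal and a gamma chain shared with other Fc receptors.

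Total counts were 19999071 to 26773176 per library, so that a gene with 0 counts could still stand at up to 0.112 to 0.150 CPM (3 counts; CPM are counts scaled to the library total with TMM factors), for counting error only. Map3k14, the gene of NIK, stood at 24.2 to 28.8 CPM in the untreated and at 129.9 to 190.6 CPM in the tamoxifen libraries, without telling transgene from endogenous transcripts. The progenitor genes Kit and Cd34 were present in every library, at 117 to 194 CPM and 149.6 to 264 CPM. Whether replicates are separate mice is not in the labels, and p-values reflect the spread of these libraries, which may be technical. The spread was wider in the tamoxifen group, where replicate 1 stood apart (a chi-square per degree of freedom of 43.1 and 46.95 against replicates 2 and 3, which differed from each other by 14.2).

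Among the 10 genes, Prg3 was higher in every tamoxifen library, Prss34 had counts only in the untreated libraries, and Mcpt8, Ms4a2 and Cpa3 did not pass the test. Prg2 was high in 1 tamoxifen library and low in the other two. Epx, Ear1, Ear2 and Fcer1a were close to or at the detection limit throughout. Of the 5 members with enough counts to be tested, 1 rose (Prg3), where 8.96% of the 12729 genes tested rose, and none fell, where 8.24% fell (quasi-likelihood F test of edgeR, two-sided, with an adjusted p under 0.05). No tested member was lower at an unadjusted p under 0.05 in edgeR, and DESeq2 and limma voom called none lower either. These methods used the same filtered genes, so none of them could call Prss34, and DESeq2 gave Prg2 no adjusted p. In edgeR with no filter, 1 member fell and 1 rose. Without tamoxifen replicate 1, 2 members fell and 1 rose. A share of 1 in 5 members that rose is too few to set apart from the 8.96% of all genes tested.

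The promoters of Prg3 (the member that rose), Prss34 (the member without counts in the tamoxifen group) and Mcpt8 (the most even member) are shown from RefSeq (GRCm38.p6, a later build than that of the counts), 5′ to 3′ on the gene's strand, from 250 bases before to 50 after an annotated start. Capitals mark the GATA factor word GATAA on either strand. Prg3 is at chr2:84987965-84988264 (plus strand), Prss34 at chr17:25298144-25298443 (plus strand) and Mcpt8 at chr14:56085148-56085447 (minus strand).
Prg3: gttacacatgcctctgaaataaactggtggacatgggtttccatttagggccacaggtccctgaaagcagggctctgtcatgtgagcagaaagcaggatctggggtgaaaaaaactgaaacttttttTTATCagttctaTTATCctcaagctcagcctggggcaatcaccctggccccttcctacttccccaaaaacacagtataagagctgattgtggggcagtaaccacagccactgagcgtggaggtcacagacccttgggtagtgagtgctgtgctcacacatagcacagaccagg
Prss34: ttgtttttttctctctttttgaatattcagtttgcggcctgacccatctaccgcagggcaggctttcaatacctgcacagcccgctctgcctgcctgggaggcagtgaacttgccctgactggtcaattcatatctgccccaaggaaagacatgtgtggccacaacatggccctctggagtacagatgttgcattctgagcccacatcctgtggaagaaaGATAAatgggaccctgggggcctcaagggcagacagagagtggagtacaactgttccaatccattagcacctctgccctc
Mcpt8: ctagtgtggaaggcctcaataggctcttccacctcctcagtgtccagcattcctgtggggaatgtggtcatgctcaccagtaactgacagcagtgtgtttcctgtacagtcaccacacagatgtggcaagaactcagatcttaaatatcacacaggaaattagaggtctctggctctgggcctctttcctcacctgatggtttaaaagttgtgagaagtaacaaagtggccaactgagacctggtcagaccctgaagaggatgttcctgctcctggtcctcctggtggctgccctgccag

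The Prg3 window held 2 such words, the first 123 bases before the start, the Prss34 window 1, at 30 bases before the start, and the Mcpt8 window none. Of the 9 members with a promoter in the table, 7 held the word (all but Epx and Mcpt8), as did 25.4% of the 32851 promoter windows of the same length. The Ear1 and Ear2 windows are nearly the same sequence, so a match in both, of this word or another, is not 2 separate matches. In both, the GATA word lies after the annotated start. This word was chosen after matches in these windows had been seen: an earlier search for 4 longer GATA words of 6 letters found a match in 5 of the 9 members (Cpa3, Fcer1a, Ms4a2, Prg3 and Prss34) and in 29.8% of windows, so the members' share depends on the letters searched. A C/EBP word (TTGCNNAA, either strand) was found in Ear1, Ear2 and Fcer1a, against 10.8% of windows. The NF-kB consensus was found in Epx alone, with 2 overlapping matches that start 1 base apart, against 8.46% of windows. Genes with the GATA word included Prg3, which rose, Prss34, which had no count with tamoxifen, and Cpa3 and Ms4a2, which did not pass. A match describes letters and is not a measured binding site.

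Prg2 and Prg3 encode the major basic protein of eosinophil granules and its homologue. Prg3 had 99, 74 and 83 counts (4.92, 3.14 and 3.08 CPM) in untreated replicates 1 to 3 and 1711, 360 and 691 counts (85.5, 16.7 and 30.6 CPM) in tamoxifen replicates 1 to 3. Every tamoxifen library was above every untreated one, as for 18.1% of genes tested. The mean went from 3.71 ± 1.05 to 44.3 ± 36.4 CPM (SD, n = 3), which is 3.58 as a log2 fold change (standard error, SE, 0.59; edgeR adjusted p = 0.00518). Without tamoxifen replicate 1, the log2 fold change was 2.68 (edgeR adjusted p = 0.000516), so the rise did not rest on the highest library.

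Prg2 had 242, 135 and 294 counts (12.03, 5.72 and 10.9 CPM) without tamoxifen and 1331, 94 and 75 counts (66.5, 4.36 and 3.32 CPM) with it. Tamoxifen replicate 1 was above all untreated libraries, and replicates 2 and 3 were below all of them. The fitted log2 fold change of 1.37 had an interval from -0.96 to 3.70 and did not pass (edgeR adjusted p = 0.403). Without tamoxifen replicate 1 the direction turned, to -1.31, and passed (edgeR adjusted p = 0.0248). With limma voom the log2 value was 0.05 (adjusted p = 0.979), and DESeq2 gave Prg2 no adjusted p.

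**Figure D1:**
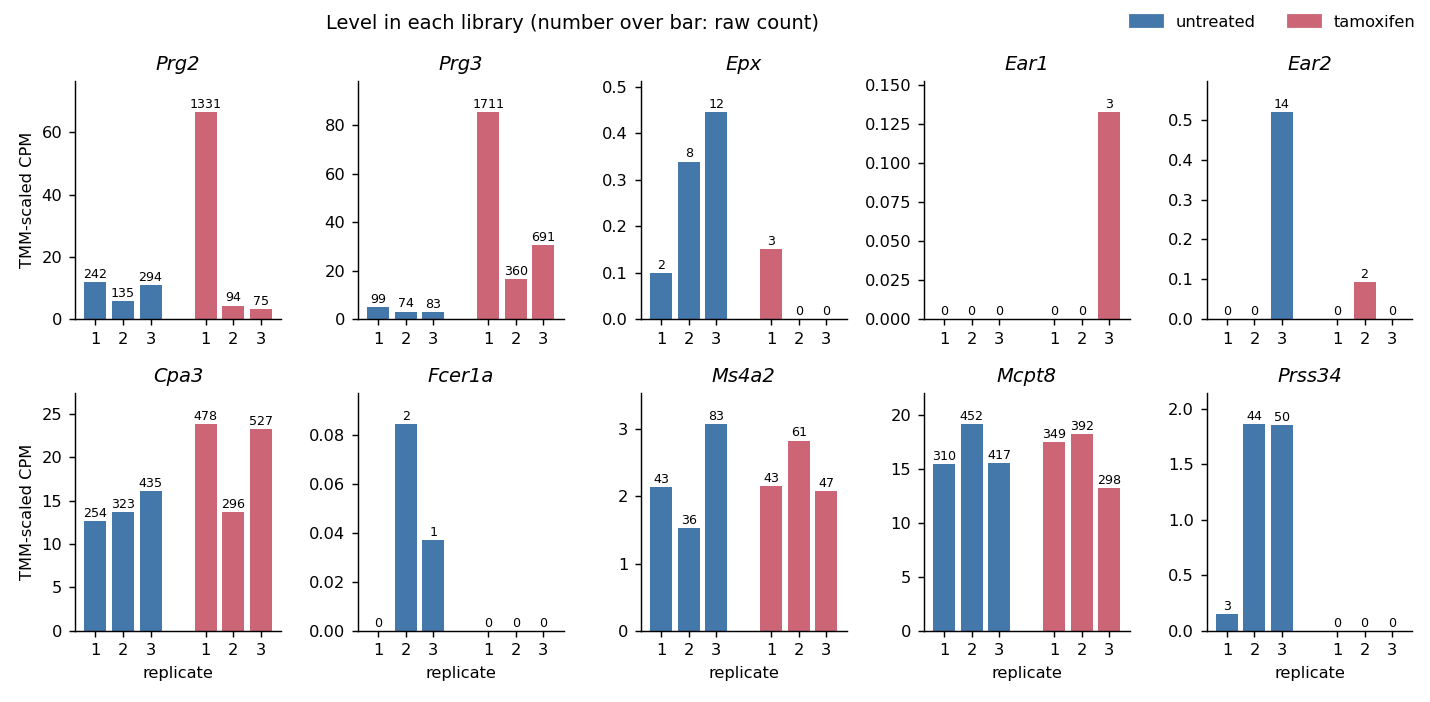
TMM-scaled CPM (vertical axis, from 0, with its own scale for each gene) of the 10 genes in the 3 untreated and 3 tamoxifen libraries, 1 bar for each library, with the raw count over each bar. Prg3 is higher in all 3 tamoxifen libraries, Prg2 only in replicate 1, Prss34 has bars only on the untreated side, and the Mcpt8 and Ms4a2 bars overlap between groups.

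The ratio of the neighbouring basic protein genes was also taken within each library. There were 0.409, 0.548 and 0.282 Prg3 counts for each Prg2 count in untreated replicates 1 to 3, against 1.29, 3.83 and 9.21 in tamoxifen replicates 1 to 3. The groups did not overlap, and tamoxifen replicate 1, where both genes were highest, had the smallest shift. The mean log2 ratio was 3.16 higher with tamoxifen. This ratio was chosen after the values were seen, so the difference is a description, with no test. The longest coding transcripts of Prg2 and Prg3 in GENCODE M21 were 60.9% identical, and the genes are next to each other on chromosome 2 in RefSeq. Slc43a3, on the other side of Prg2, rose from 91.4 ± 1.67 to 141 ± 1.30 CPM (SD, n = 3; edgeR adjusted p = 0.00123), and P2rx3, beyond Prg3, did not pass (log2 0.89, edgeR adjusted p = 0.0892). Both neighbours were named after their values were seen.

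**Figure D2:**
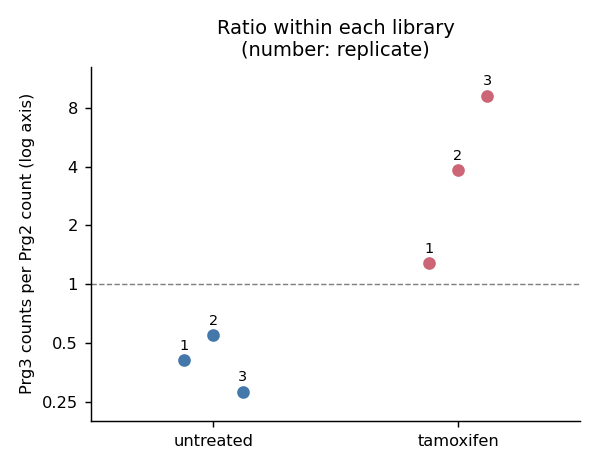
Prg3 counts per Prg2 count (vertical log axis) in each library, 1 point for each, numbered by replicate, with the dashed line at equal counts. The 3 untreated libraries lie between 0.282 and 0.548, below the line, and the 3 tamoxifen libraries between 1.29 and 9.21, above it.

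The other eosinophil granule genes had few counts. Epx, the eosinophil peroxidase gene that marks committed eosinophil progenitors, had 2, 8 and 12 counts in the untreated and 3, 0 and 0 in the tamoxifen libraries, and was not tested. Its untreated level was 6.63 times its tamoxifen level, with a 95% exact counting interval of 1.99 to 34.6 that leaves out the spread between libraries. All 3 tamoxifen counts came from replicate 1, and the groups overlapped. Ear1 and Ear2 encode eosinophil-associated ribonucleases. Ear1 had 3 counts, all in tamoxifen replicate 3. Ear2 had 14 counts in untreated replicate 3 and 2 in tamoxifen replicate 2, with 0 elsewhere. The longest Ear1 and Ear2 transcripts are 96.1% identical, so counts of either are uncertain where reads could map to both. With no filter on low counts, Epx, Ear1 and Ear2 did not pass (edgeR adjusted p = 0.277, 0.435 and 0.468).

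Summed over the 5 eosinophil granule genes, the level was 9.20 to 17.1 CPM in the untreated and 21.2 to 152 CPM in the tamoxifen libraries. Prg2 and Prg3 made up nearly all of it. In tamoxifen replicates 2 and 3 it was mostly Prg3, at 16.7 of 21.2 and 30.6 of 34.0 CPM. Prg2 was below every untreated library there (4.36 and 3.32 CPM), so the sum does not show a rise of the class. In bulk samples, more cells of a type and more RNA per cell cannot be told apart. Most macrophage markers moved with Prg3: of 14 tested on a list of 15, 11 rose, beside 8.96% of all genes tested. Their summed level was 419 to 592 CPM in the untreated and 1120 to 2135 CPM in the tamoxifen libraries, highest in replicate 1. Vcam1 alone made up 930, 456 and 457 CPM of it in tamoxifen replicates 1 to 3. Cd68 was the 1 tested marker that was lower, from 117 ± 4.11 to 101 ± 3.73 CPM (SD, n = 3), without overlap. It did not pass (log2 -0.21, edgeR adjusted p = 0.113). None of the 15 was at 0 in every library. C1qa, a complement gene of tissue macrophages, stood at 0.34 to 3.63 CPM in the untreated libraries and at 92.6, 8.03 and 14.3 CPM in tamoxifen replicates 1 to 3. The part of these cells in the Prg3 result was not tested.

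The mast cell and basophil proteases split. Mcpt8, a serine protease of basophil granules, had 310, 452 and 417 counts (15.4, 19.2 and 15.5 CPM) in the untreated and 349, 392 and 298 counts (17.4, 18.2 and 13.2 CPM) in the tamoxifen libraries. The groups overlapped, and the log2 fold change was -0.04 with an interval from -0.43 to 0.36 (edgeR adjusted p = 0.912). Tamoxifen replicate 1 did not stand apart for this gene.

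Cpa3, the carboxypeptidase stored with proteases in mast cells and made in their progenitors, had 254, 323 and 435 counts (12.6, 13.7 and 16.2 CPM) in the untreated and 478, 296 and 527 counts (23.9, 13.7 and 23.3 CPM) in the tamoxifen libraries. Tamoxifen replicates 1 and 3 were above all untreated libraries and replicate 2 lay among them. The log2 fold change of 0.52 (interval 0.0041 to 1.04) did not pass after adjustment (edgeR adjusted p = 0.154). It passed when tamoxifen replicate 2 was left out (log2 0.73, edgeR adjusted p = 0.0294).

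Prss34, a tryptase-like protease gene of basophils and immature mast cells also known as mMcp-11, had 3, 44 and 50 counts (0.149, 1.86 and 1.86 CPM) in untreated replicates 1 to 3 and 0 in each tamoxifen library, without overlap, as for 19.6% of genes tested in the lower direction. Untreated replicate 1 was itself at the detection limit. Over the groups, the level was at least 29.2-fold lower with tamoxifen, against a floor of 3 counts over the tamoxifen group. This bound takes the pooled untreated counts as exact and leaves out the spread between libraries, so it does not hold for untreated replicate 1 alone. Prss34 did not pass the filter on low counts and so was not tested in the main comparison; without a filter it passed (edgeR adjusted p = 0.00952). When a library was left out, the filter kept Prss34 in 4 of 6 cases. It passed without untreated replicate 1 (edgeR adjusted p = 0.0109) or tamoxifen replicate 1 (0.0245) and missed the threshold without tamoxifen replicate 2 (0.0608) or 3 (0.0688).

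The IgE receptor chains were uneven in level. Ms4a2 and Fcer1g did not pass, and Fcer1a had too few counts to be tested. Fcer1a, the alpha chain that binds IgE, had 0, 2 and 1 counts in the untreated and 0 in each tamoxifen library, which gives no fold. Ms4a2, the beta chain, had 43, 36 and 83 counts (2.14, 1.53 and 3.08 CPM) in the untreated and 43, 61 and 47 counts (2.15, 2.83 and 2.08 CPM) in the tamoxifen libraries. The groups overlapped, with a log2 fold change of 0.06 and an interval from -0.75 to 0.87 (edgeR adjusted p = 0.924), which leaves room for changes of some size in either direction. Fcer1g, the gamma chain shared with other Fc receptors, stood at 181 ± 23.7 and 185 ± 12.1 CPM (SD, n = 3; log2 0.03, edgeR adjusted p = 0.872).

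**Figure D3:**
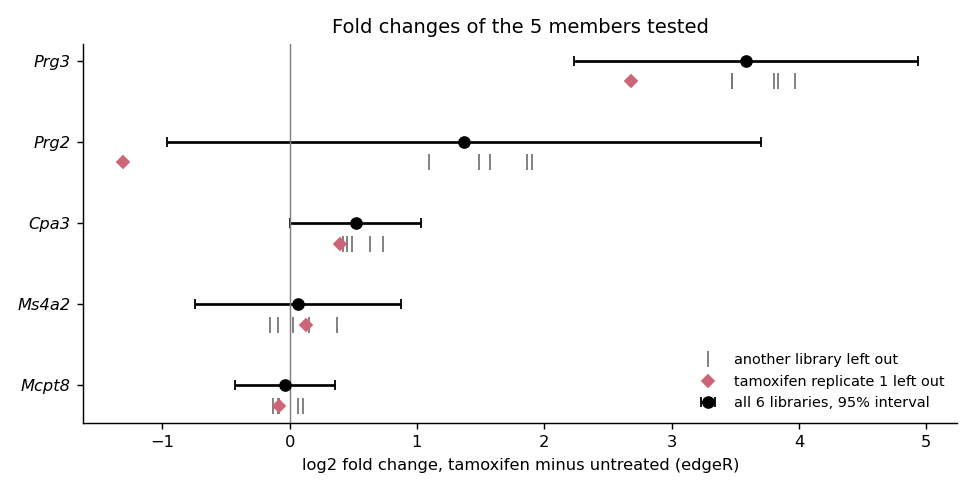
Log2 fold change (horizontal axis, tamoxifen minus untreated, edgeR) of the 5 members tested, with the 95% interval from all 6 libraries in black and, under it, the value with each library left out in turn. Prg3 stays between 2.68 and 3.97, while Prg2 turns from 1.37 to -1.31 without tamoxifen replicate 1, and Mcpt8 and Ms4a2 lie around 0.

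Per kilobase of exon (exon lengths from GENCODE M21), the order of levels differed between groups. Untreated, Mcpt8 was highest at 16.7 CPM per kilobase, followed by Prg2 at 11.4, Cpa3 at 9.33 and Prg3 at 3.91, then Prss34 at 1.06 and Ms4a2 at 0.799. Prg2 (6.83 to 14.4 CPM per kilobase) and Cpa3 (8.32 to 10.6) overlapped between libraries, as did Prss34 and Ms4a2. Ear2, Epx, Fcer1a and Ear1 stood at 0.241 CPM per kilobase or below. With tamoxifen, Prg3 had the highest mean at 46.6 CPM per kilobase, and its lowest library (17.6) lay within the range of Mcpt8 (13.2 to 18.2). The Prg2 mean of 29.5 CPM per kilobase came from a range of 3.96 to 79.4, across those of Mcpt8 and Cpa3.

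The tested genes most like each member in log2 CPM over the 6 libraries were found among 12728 others. With 6 points, and each r picked as among the highest of 12728, values near 1 can arise without a link. Some of these genes also share a group difference, so the correlations are descriptive. For Ms4a2 the closest was Fcer1g, its receptor partner (Pearson r = 0.990), with Adamtsl4 (0.9898) almost level and Unc5cl (0.984) next. For Prg3 they were Dlc1 (0.998), Ddt (0.998) and Hcn3 (0.996), of which Dlc1 and Ddt rose. For Prg2 they were Tfr2 (0.995), Kdm5b (0.994) and Hoxa10 (0.992), none of which passed. Cpa3 was closest to Smndc1 (0.990), Eml6 (0.989) and Slc26a11 (0.983), and Mcpt8 to 4833420G17Rik (0.985), B3gnt4 (0.982) and Dnajc30 (0.970), and none of these passed.

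Most other granule and mediator genes of these lineages had too few counts to be tested. Of 36 in the files, 10 lacked counts throughout, as did 6156 of all 24015 genes listed, and 11 were tested. Of these 11, 1 rose and 2 fell, beside 8.96% and 8.24% of all genes tested. Their median log2 fold change was -0.16, beside -0.0025 over all genes tested. Hdc, which makes histamine, fell from 43.6 ± 5.58 to 4.88 ± 1.996 CPM (log2 -3.16, SE 0.29; SD, n = 3; edgeR adjusted p = 0.00033). Lpo, a peroxidase gene related to Epx, had 15, 43 and 20 counts untreated and 0 in each tamoxifen library, at least 23.5-fold lower against the same floor (edgeR adjusted p = 0.00798); with Lpo at that bound the list's median was the same. Hpgds, the prostaglandin D synthase of mast cells, rose from 1.19, 1.02 and 1.08 CPM to 9.65, 1.72 and 3.63 CPM (edgeR adjusted p = 0.040). The call was lost in limma voom (adjusted p = 0.114) and in edgeR without any 1 untreated library or tamoxifen replicate 3 (0.0688 to 0.122).

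Srgn, the proteoglycan that packs granule proteases, went from 1140 ± 58.2 to 745 ± 292 CPM (SD, n = 3; log2 -0.61, edgeR adjusted p = 0.111). Without tamoxifen replicate 1 it was lower by more and passed (log2 -0.98, edgeR adjusted p = 0.000154), and 4 genes of the list then fell and 2 rose. The mast cell proteases Mcpt1, Mcpt2, Mcpt4, Cma1, Tpsab1 and Tpsb2 had at most 12 counts in any library. Cma1, the mast cell chymase, had 0 counts untreated and 12, 5 and 2 with tamoxifen, at least 7.01-fold higher against 3 counts over the untreated group and not tested. The interleukin genes Il4 and Il6 had no count.

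Of 22 receptor and surface genes tested, 2 rose and 2 fell (median log2 0.11), near the shares of all genes tested (8.96% rose and 8.24% fell). Ccr3, the eotaxin receptor that guides eosinophils, had 4, 2 and 0 counts in the untreated and 292, 46 and 65 counts in the tamoxifen libraries, 0.0945 ± 0.0998 against 6.54 ± 6.99 CPM (log2 6.14, SE 1.10; SD, n = 3; edgeR adjusted p = 0.00774). Without tamoxifen replicate 1 its log2 fold change was 4.77 (edgeR adjusted p = 0.0024). As for Prg3, every tamoxifen library was higher and replicate 1 highest. Emr1, the macrophage and eosinophil surface gene of F4/80, rose (log2 1.005, edgeR adjusted p = 0.0055), whereas the integrin gene Itgb7 (log2 -2.07, edgeR adjusted p = 0.00199) and the TSLP receptor gene Crlf2 (log2 -0.76, edgeR adjusted p = 0.00507) fell. Without tamoxifen replicate 1, 5 genes of this list fell, and without untreated replicate 3, 4 rose.

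The growth factor and interleukin receptor genes Il5ra, Csf2rb, Il3ra, Kit and Il1rl1 did not pass. Il5ra, the eosinophil growth factor receptor, stood at 1.27 ± 0.278 and 1.66 ± 0.399 CPM (SD, n = 3; log2 0.39, interval -0.44 to 1.22, edgeR adjusted p = 0.513). Its partner Csf2rb had a log2 fold change of 0.03 (interval -0.14 to 0.20), Il3ra of -0.14 (-0.44 to 0.15) and Kit, the stem cell factor receptor of progenitors and mast cells, of 0.25 (-0.12 to 0.62). Il1rl1, the receptor of interleukin-33 on mast cells, was higher in all 3 tamoxifen libraries but low, at 0.426 ± 0.177 and 1.02 ± 0.283 CPM (SD, n = 3; edgeR adjusted p = 0.114). Siglec5, listed in RefSeq as an older name of the eosinophil lectin gene Siglecf, stood at 106 ± 12.99 and 113 ± 34.3 CPM (SD, n = 3; edgeR adjusted p = 0.785).

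Of the 27 genes that carry the IgE receptor signal, all of them tested, 5 rose and 2 fell (median log2 -0.0084). Over all genes tested, 8.96% rose and 8.24% fell. Lat2, an adaptor downstream of the receptor, fell from 112 ± 6.49 to 46.5 ± 5.95 CPM (SD, n = 3; log2 -1.27, edgeR adjusted p = 0.000282), and the exchange factor gene Sos1 fell (log2 -0.51, edgeR adjusted p = 0.00938). Among those that rose were the protein kinase genes Prkcd (log2 0.67, edgeR adjusted p = 0.00235), Prkcb (0.45, 0.0122) and Fyn (1.31, 0.0247). Prkcb missed the threshold without untreated replicate 1 or 2 (edgeR adjusted p 0.0591 to 0.0655), and Fyn without either of these or tamoxifen replicate 3 (0.0523 to 0.103). Only 1 of the list rose without untreated replicate 1, or without untreated replicate 2, and 3 without tamoxifen replicate 3. The kinase genes Lyn and Syk, which start the signal, did not pass (log2 -0.10 and -0.02, edgeR adjusted p = 0.731 and 0.876).

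Among 26 tested lineage transcription factors, 2 rose and 3 fell (median log2 -0.030), where 8.96% and 8.24% of all genes tested did. Gata2, a driver of mast cell and basophil fate, rose from 35.1 ± 0.708 to 76.1 ± 3.58 CPM (log2 1.12, SE 0.08; SD, n = 3; edgeR adjusted p = 0.000123). Gata1, needed for eosinophils and mast cells, had 3 counts in untreated replicate 1 and 1 in tamoxifen replicate 2, with 0 elsewhere. Irf8 (log2 -1.14, edgeR adjusted p = 0.00837), Lmo4 (-0.77, 0.00438) and Cebpa (-0.43, 0.0337), the C/EBP factor of early myeloid cells, fell, and Ets1 rose (0.91, 0.0177). Ets1 missed the threshold without untreated replicate 1 or tamoxifen replicate 2 or 3 (edgeR adjusted p 0.0539 to 0.0776), and Cebpa without untreated replicate 1 or 2 or tamoxifen replicate 3 (edgeR adjusted p 0.108 to 0.138). Mitf, the mast cell factor (log2 -0.41, edgeR adjusted p = 0.341), and Cebpe, which drives late granulocyte genes (-0.03, 0.952), did not pass. The number that rose was 4 without tamoxifen replicate 1 and with DESeq2, and 1 without untreated replicate 1 or tamoxifen replicate 2.

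**Figure D4:**
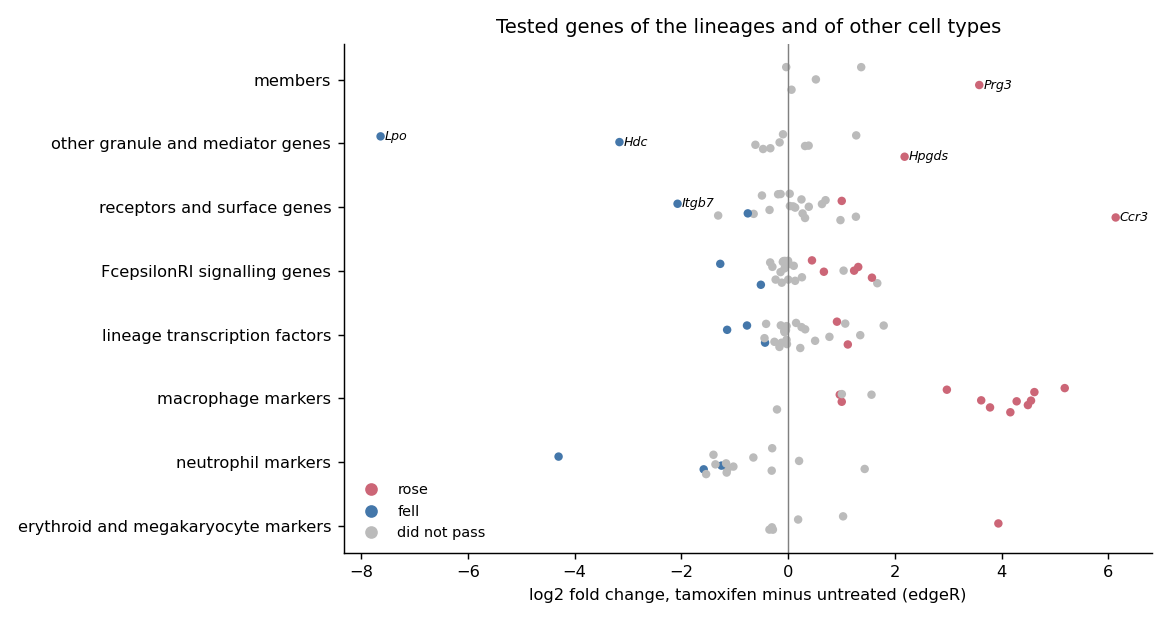
Log2 fold change (horizontal axis, tamoxifen minus untreated, edgeR) of each tested gene of the members, of 4 further gene lists of these lineages and of 3 lists of other cell types, 1 point for each gene, spread vertically within its row for legibility. Points of the 4 lineage lists lie on both sides of 0, with Ccr3 farthest right and Lpo farthest left, where the Lpo value depends on the fit because its tamoxifen counts are 0; 11 of 14 macrophage markers lie right of 0 as genes that rose.

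Markers of other cell types give the rest of the setting, where 8.96% of all genes tested rose and 8.24% fell. Of 15 neutrophil markers tested, none rose and 3 fell, the primary granule genes Mpo, Elane and Prtn3. The summed level of the list was 10258 to 11494 CPM in the untreated and 3248 to 4466 CPM in the tamoxifen libraries. Most of it came from these genes and Ctsg, and Mpo alone went from 3683 ± 643 to 187 ± 162 CPM (SD, n = 3). The late neutrophil genes Ltf, Camp, Ngp, S100a8 and S100a9 overlapped between groups and did not pass. By log2 fold change, 13 of the list were lower and 2 higher, Lcn2 and Csf3r. Among 20 erythroid and megakaryocyte markers, 4 were at 0 in every library (the globin genes Hbb-b1, Hbb-b2, Hba-a1 and Hba-a2) and 1 of 6 tested rose, Car2. Their summed level was 139 to 142 CPM in the untreated and 121 to 179.6 CPM in the tamoxifen libraries, highest in replicate 1. The summed levels of T and NK cell markers (68.4 to 79.0 CPM untreated, 40.1 to 101 CPM with tamoxifen), B and plasma cell markers (43.4 to 48.9 and 30.7 to 59.3 CPM), dendritic cell markers (177 to 207 and 151 to 209.6 CPM) and stromal and endothelial markers (169.8 to 232 and 115 to 174 CPM) overlapped between groups. Of these 4 lists, 1 of 8, 1 of 5, 2 of 8 and 2 of 7 tested members rose, and 1, 0, 1 and 1 fell. The sums lean on the gene with the highest untreated mean of each list, Nkg7, Cd79b, Flt3 and Pecam1. Of these, Nkg7, Flt3 and Pecam1 fell, so overlap of the sums does not show that a list's other genes were unchanged. Those that rose were Lck, Blnk, Ccr9, Ccr7, Col1a1 and Col1a2. The median log2 fold changes of the 4 lists were 1.14, -0.26, 1.12 and 0.50.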

How the data were processed

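RNA sequencing of 6 libraries (3 untreated, 3 tamoxifen, grouped by title) was deposited as 1 file per library of whole-number counts per gene symbol, not normalized, as made by the authors. The submitters' processing notes name TopHat2 2.1.0, featureCounts, DESeq2 and FastQC, and build mm9, without roles. Annotation, strand setting and treatment of multiply mapped reads are not given in these sources, so near-identical copies and antisense partners may share or lose counts.

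From the deposited counts, genes were kept by filterByExpr (minimum count 10), scaled with TMM and compared with edgeR 4.0.16 (R 4.3.3), by the two-sided quasi-likelihood test (glmQLFit, glmQLFTest) of group alone, with Benjamini-Hochberg adjustment over all 12729 genes tested and a threshold of 0.05. Standard errors were derived from the F statistic, and intervals are at 95%. Where a group had no count, folds are bounds against 3 counts over that group. The pooled counts of the other group are taken as exact, without the spread between libraries. Likeness used log2 CPM (prior count 2). Alternatives were 3 other scalings (RLE, upper quartile, none), no filter, a stricter filter (3 libraries or more with CPM over 1), limma 3.58.1 voom, DESeq2 1.42.0, the replicate number as a block and leaving out each library. The fit was tested on simulated data.

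Named genes were the 10 members, 13 regulators and receptors, up to 6 passing genes of each lineage list and the 3 genes most like each tested member; genes beyond these were named after their values were seen, and some genes that the rule takes are not reported here. The members and lists were chosen with earlier results of these data known. Promoters came from RefSeq (GRCm38.p6), matched by symbol for 9 members; transcripts and exon lengths came from GENCODE M21.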

Additional observations from a re-analysis of the deposited data

How the results depend on the processing

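Among the members, the call of Prg3 and its direction held under all 14 alternatives run, with log2 fold changes of 2.68 to 3.97. The number of members that rose was 1 to 2 and the number that fell 0 to 2 with 1 library left out; the second gene that rose was Cpa3, without tamoxifen replicate 2, and those that fell were Prss34, and Prg2, which ranged from -1.31 without tamoxifen replicate 1 to 1.904 without tamoxifen replicate 3. With no filter, 1 member fell (Prss34), as more genes were tested. Over all genes, 1140 rose and 1049 fell, and 586 to 1657 rose and 443 to 1592 fell with 1 library left out. No scaling choice turned a member's direction, and the median of all genes moved by less than 0.1 on the log2 scale. Deviations of same-numbered replicates had correlations of 0.118, -0.115 and 0.106, within the range of differently numbered ones (-0.168 to 0.140). No pairing by number was seen, but correlations this weak cannot show whether the samples were paired. With the replicate block, 959 genes rose and 833 fell, 1 member rose and none fell, Prg2 was at 0.14 and Srgn passed at -0.68 (edgeR adjusted p = 0.0394), while Hpgds (0.0502) missed the threshold. Epx, Ear1, Ear2 and Fcer1a had too few counts for a firm statement on a change. Whether depth or the loss of multiply mapped reads set the Ear1 and Ear2 counts was not tested.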

Other observations

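Some genes of these lineages with too few counts to be tested had uneven counts. Alox15, a lipoxygenase gene of eosinophils and macrophages, had 65 counts in tamoxifen replicate 2 and 0 to 11 in the other libraries. Hrh4, the histamine receptor of eosinophils and mast cells, had 2, 21 and 23 counts in tamoxifen replicates 1 to 3 and 0, 2 and 1 untreated, so it was low in the tamoxifen library where Prg3 and Prg2 were highest. Untreated replicate 3, which held 14 of the 16 Ear2 counts, also had the highest level of the late neutrophil granule gene Camp, at 257 CPM against 0.34 to 56.1 CPM elsewhere. Itga2, the integrin CD49b of basophils, had 2, 4 and 6 counts untreated and 0 in each tamoxifen library, too few to be tested. These genes were picked after their values were seen.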
